A study of Mus musculus with 10 samples.

Results

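The collagen genes encode the chains of the collagens, the triple-helical proteins that give the extracellular matrix of the heart its strength. Members were the genes whose symbol in the array annotation has the form of a collagen chain, Col with a type number and an a with a chain number, and that have a probe set assigned to that symbol alone. This gave 42 collagen genes among the 18193 genes measured, with 82 probe sets, and 27 of the genes had more than 1 probe set. Of several probe sets, the brightest by its 10-array mean stood for the gene.

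Each collagen molecule is a trimer of chains, and many collagens need chains from different genes. Fibrillar collagens build the fibres of the interstitial matrix, which fibroblasts and the mesenchyme of the valves and cushions lay down, whereas collagen IV forms the network of the basement membranes that surround cardiomyocytes and underlie endothelium and epicardium. Collagen VI forms beaded microfilaments near cell surfaces, and the fibril-associated collagens sit on the fibres. Chains are hydroxylated and folded in the endoplasmic reticulum, exported in large carriers, trimmed by proteinases outside the cell and cross-linked by lysyl oxidases.

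Hearts of female embryos, taken whole from mice at 13.5 days of gestation, were compared between a heterozygous, heart-conditional knockout of Hccs (5 arrays) and control littermates (5 arrays), each array a pool of 4 to 5 hearts of 1 genotype. Hccs, holocytochrome c synthase, attaches haem to the mitochondrial cytochromes c and c1 and lies on the X chromosome, so that in heterozygous females cells that lack the enzyme lie among cells that have it. The Cre line that drove the deletion, and the alleles that the controls carried, are not given in the sources used here. Values are log2 probe set signals, on which 1 unit is a doubling, and differences are knockout minus control. A gene is said to have risen or fallen where the adjusted p of limma, a moderated linear model fitted on all 18193 genes with Benjamini-Hochberg adjustment, lay under 0.05. In such bulk RNA, fewer cells of a type and less RNA per cell cannot be told apart.

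Hccs itself averaged 10.68 ± 0.20 in knockout hearts and 11.23 ± 0.08 in control hearts (SD, n = 5 each), a log2 change of -0.55 with a standard error of 0.090 (adjusted p = 0.0225 by limma). Array medians lay between 3.65 and 3.76. The arrays numbered 3 of both genotypes stood farthest from their genotype's mean, with root mean square deviations of 0.224 in knockout 3 and 0.223 in control 3, against 0.164 to 0.199 in the other arrays. Of the 3 control probe sets for 18S ribosomal RNA, that for the 5′ part averaged 8.17 ± 0.35 in knockout hearts and 10.05 ± 1.25 in control hearts (SD, n = 5 each, exact permutation p = 0.0238, two-sided). The middle probe set averaged 7.99 ± 0.65 in knockout hearts and 8.95 ± 0.84 in control hearts (exact p = 0.0794), and that for the 3′ part 8.38 ± 0.34 in knockout hearts and 9.16 ± 1.25 in control hearts (exact p = 0.222). Their part in the collagen results was not tested. The cardiomyocyte markers that define the labelled tissue were all bright, the dimmest of the 10 averaging 10.43 over the arrays. The mean log2 level over these 10 genes was 13.88 to 14.10 in knockout hearts and 14.21 to 14.47 in control hearts, without overlap. Of these markers 3 fell and 0 rose, and all 10 had a lower mean in knockout hearts, where 0.945% of all genes on the array fell and 39.5% had a lower mean.

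Few collagen transcripts differed between the genotypes past the threshold. Of the 42 collagen genes 1 fell, Col4a6, and 0 rose, where over the whole array 172 genes fell (0.945%) and 297 rose (1.63%). That is 2.38% of the collagen genes called in either direction, against 2.58% of all genes. At an unadjusted p under 0.05, 4 collagen genes were lower and 1 was higher, while 7.48% of all genes were lower and 13.2% were higher. The knockout arrays lay wholly below the control arrays in 2 collagen genes, Col4a6 and Col2a1, and wholly above in 0, against 1.92% and 3.86% of all genes and 5.79% for both together. The median log2 change was -0.021 over the collagen genes and 0.025 over all genes.

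The counts were also taken by brightness of the probe set. The mean signal of 23 collagen genes lay above 6.50, the median of all genes, and that of the other 19 lay at or under 6.34. Among the 23, 14 had a lower mean in knockout hearts (60.9%), against 47.7% of all genes above the same median, and their median log2 change was -0.079, against 0.010. Of the 23, 1 fell and 0 rose, where 1.81% of all genes above that median fell and 2.81% rose. Among all 42, 25 had a lower mean (59.5%), against 39.5% of all genes. For the 19 dim genes changes ran from -0.57 to 0.08, and 0 of them passed the test. Collagen genes are long, with a median span of 110 kb in the reference annotation, longer than 89.1% of genes. Where a trend of signal on gene span was removed, an alternative chosen after seeing the data, 0 collagen genes passed. Col4a6 then had a log2 change of -0.32 (adjusted p = 0.0533), against -0.33 without that step, and the median over the collagen genes was -0.050, against -0.021.

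**Figure D1:**
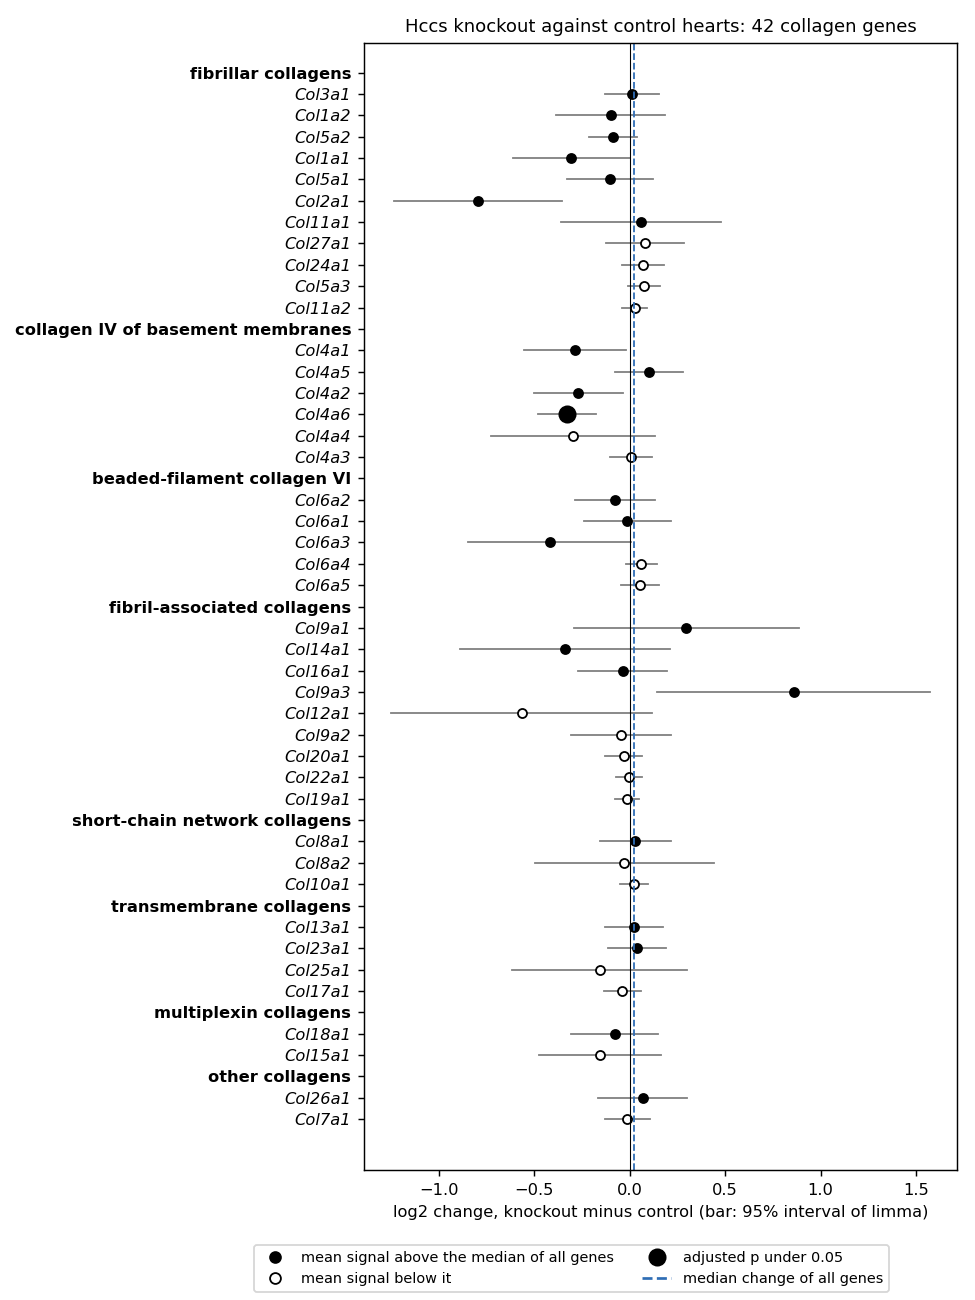
Log2 change, knockout minus control, of each of the 42 collagen genes by class on the horizontal axis, with the 95% interval of limma as a bar. Col4a6 is the gene that passed at an adjusted p under 0.05, drawn with a larger point, and the intervals of Col2a1, Col4a1, Col4a2 and Col9a3 also leave out 0. Filled points have a mean signal above the median of all genes, open points lie below it, and the dashed line is the median change of all genes, 0.025.

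Collagen IV held the collagen gene that fell. Its chains make 3 kinds of trimer: the widespread network of Col4a1 and Col4a2 chains, and the networks with Col4a3, Col4a4 and Col4a5 or with Col4a5 and Col4a6 that are found in selected basement membranes. Col4a6 and Col4a5 lie head to head on the X chromosome with start sites 1343 bases apart in RefSeq GRCm38.p6. The 250 bases before each start are shown because the genes start close together and Col4a6 passed the test. The Col4a6 window is chrX:141474077-141474326 on the minus strand, the Col4a5 window is chrX:141475169-141475418 on the plus strand, and capitals mark motifs. The motifs searched, on both strands, were the CCAAT box (CCAAT), the TATA box (TATAAA) and the GC box (GGGCGG), whose letters do not overlap each other in the windows shown.
Col4a6: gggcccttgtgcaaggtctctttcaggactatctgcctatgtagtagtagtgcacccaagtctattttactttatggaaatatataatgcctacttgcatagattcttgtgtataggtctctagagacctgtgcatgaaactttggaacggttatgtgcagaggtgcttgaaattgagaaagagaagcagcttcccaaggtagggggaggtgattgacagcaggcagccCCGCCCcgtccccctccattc
Col4a5: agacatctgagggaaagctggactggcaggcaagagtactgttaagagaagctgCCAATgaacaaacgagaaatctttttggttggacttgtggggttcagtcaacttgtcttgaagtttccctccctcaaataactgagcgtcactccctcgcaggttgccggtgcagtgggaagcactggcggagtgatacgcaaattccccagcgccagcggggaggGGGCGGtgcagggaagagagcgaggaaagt
The Col4a6 window held a GC box 21 bases before the start and neither of the other motifs. The Col4a5 window held a CCAAT box 196 bases and a GC box 30 bases before the start.

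Col4a6 had log2 signals of 7.71, 7.64, 7.74, 7.66 and 7.61 in knockout pools 1 to 5, against 7.91, 7.99, 8.04, 7.83 and 8.22 in control pools 1 to 5. All 5 knockout pools lay below all 5 control pools. The log2 change was -0.33 (SE 0.068, 95% interval -0.48 to -0.18, adjusted p = 0.0416 by limma), which is a decrease: the signal fell by 20.3%. The call was narrow. It was lost without any of controls 1, 2 and 3 and knockouts 2, 3, 4 and 5, with adjusted p of 0.0667, 0.0785, 0.0921, 0.0912, 0.0716, 0.0933 and 0.0816, and it was kept without each of the others, while the log2 change stayed between -0.37 and -0.27. The dimmer probe set of the gene gave a log2 change of -0.45, with an adjusted p of 0.147 over all probe sets.

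Col4a5, the partner chain, had signals of 11.48, 11.74, 11.59, 11.85 and 11.73 in knockout pools, against 11.41, 11.66, 11.72, 11.56 and 11.53 in control pools. The groups overlapped, and the log2 change was 0.10 (SE 0.080, 95% interval -0.079 to 0.28, adjusted p = 0.496). Its dimmer probe set gave -0.089 (adjusted p = 0.537 over all probe sets), so the direction for this gene depends on the probe set. The comparison of both chains that follows used the brightest probe set of each and was not repeated with the dimmer ones. The difference between the changes of Col4a6 and Col4a5 was -0.43, and the log2 ratio of the chains did not overlap between genotypes (exact permutation p = 0.00794, the smallest that 5 against 5 arrays allow; 0.0635 after adjustment over the 8 pairs of chains compared). Within genotypes the signals of both chains had a correlation near 0 over the 10 arrays (r = -0.063, exact permutation p = 0.877).

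Col4a1 and Col4a2, the chains of the widespread network, lie head to head on chromosome 8. Their first transcribed bases are 21 bases apart, and the transcripts overlap there, since each runs across the start of the other. Capitals show both bases in the 30 plus-strand bases of chr8:11312801-11312830. That of Col4a2 comes first, then that of Col4a1, which reads the other strand. Motifs are not marked in this stretch.
Col4a1 and Col4a2 starts: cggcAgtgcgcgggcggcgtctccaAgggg
Col4a1 had signals of 13.30, 12.91, 13.00, 13.00 and 12.87 in knockout pools, against 13.25, 13.35, 13.69, 13.10 and 13.13 in control pools. Knockout 1 lay within the control range and the other knockout pools lay below it. The log2 change of -0.29 (SE 0.12, 95% interval -0.56 to -0.020) did not pass (adjusted p = 0.215), and a dimmer probe set gave -0.28 with groups that did not overlap (adjusted p = 0.0715 over all probe sets). Col4a2 had signals of 11.22, 11.05, 10.92, 11.18 and 11.10 in knockout pools, against 11.33, 11.35, 11.74, 11.18 and 11.23 in control pools. Knockout 1 and knockout 4 reached into the control range, and the log2 change was -0.27 (SE 0.10, adjusted p = 0.186). Control 3 was the highest pool for both chains. The changes of both chains differed by -0.018 (exact permutation p = 0.778, adjusted 0.873).

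The rarer chains Col4a3 and Col4a4, which lie head to head on chromosome 1, had dim probe sets and log2 changes of 0.0081 and -0.30 (95% interval of Col4a4 -0.73 to 0.13). Of the 6 collagen IV genes 1 fell, 0 rose and 5 did not pass, where 0.945% of all genes fell and 1.63% rose. Their median log2 change was -0.28.

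**Figure D2:**
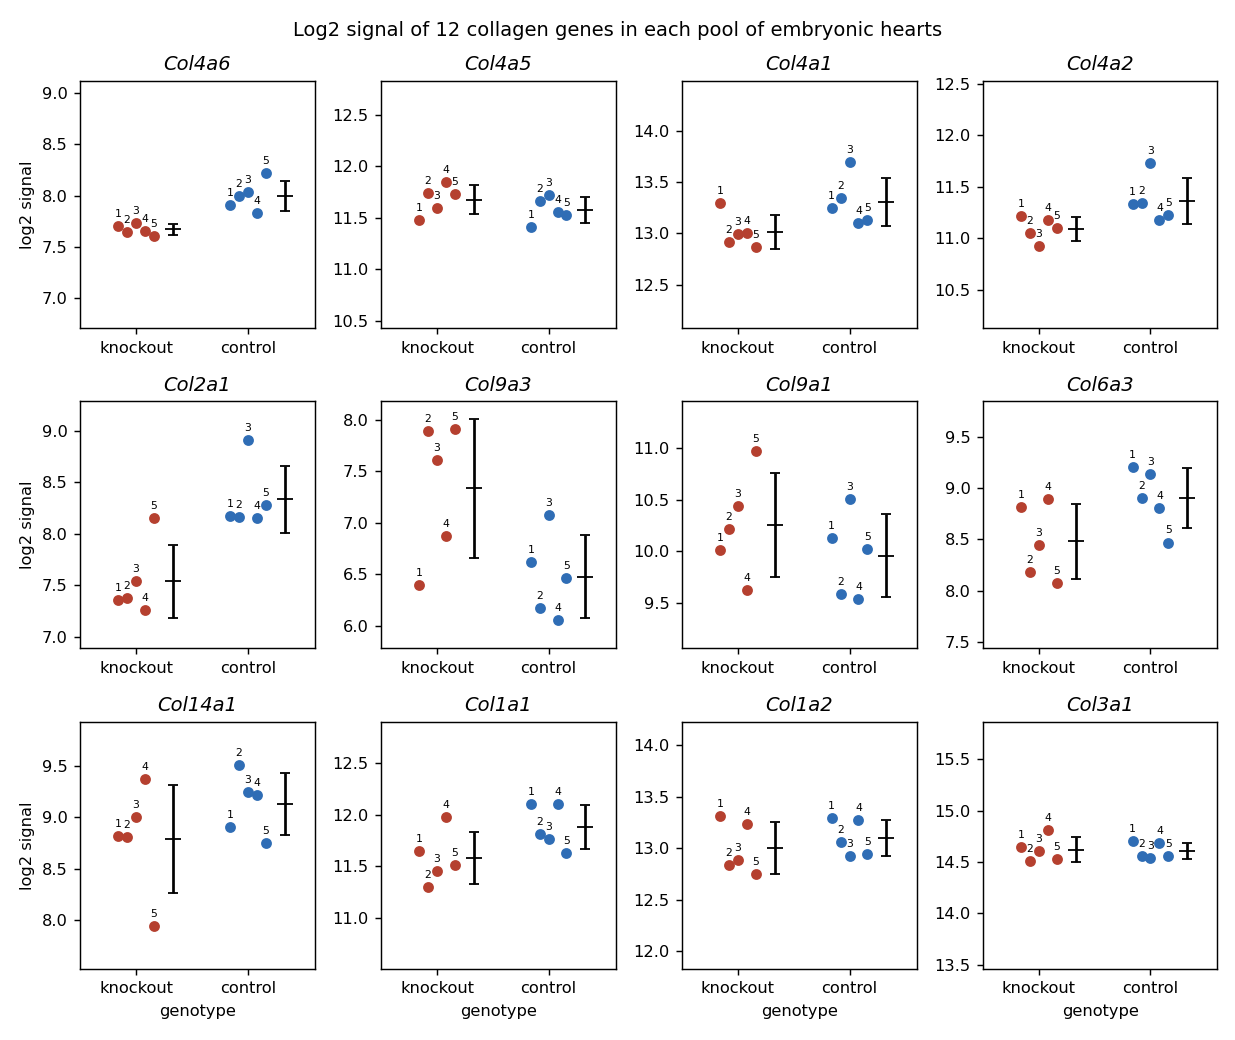
Log2 signal (vertical axis) of 12 collagen genes in each pool, knockout left and control right, with numbered points for the 5 arrays of each genotype and the mean with its SD in black. The knockout pools of Col4a6 lie below all its control pools, knockout 5 of Col2a1 reaches its control pools, and the pools of Col3a1 overlap.

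Fibrillar collagens showed no gene past the threshold: 0 of 11 rose and 0 fell, 6 had a higher mean and 5 a lower mean in knockout hearts, and the median log2 change was 0.012. Of the 6 with a higher mean, Col11a2, Col5a3, Col24a1 and Col27a1 had dim probe sets, below the median signal of all genes. Col3a1 and Col11a1 lay above that median, as did the 5 with a lower mean. Col3a1, the chain of collagen III, which forms the fine fibres of compliant tissues, had signals of 14.64, 14.51, 14.60, 14.81 and 14.53 in knockout pools, against 14.70, 14.56, 14.54, 14.68 and 14.56 in control pools. The pools overlapped fully, and the log2 change of 0.012 had a narrow 95% interval of -0.13 to 0.15 (SE 0.063, adjusted p = 0.929). A dimmer probe set of Col3a1 gave 0.20, above that interval (adjusted p = 0.251 over all probe sets). The main fibre collagen, collagen I, is a trimer of Col1a1 and Col1a2 chains. Col1a1 had signals of 11.65, 11.30, 11.46, 11.98 and 11.51 in knockout pools, against 12.11, 11.81, 11.77, 12.11 and 11.63 in control pools. Its log2 change was -0.31 (95% interval -0.61 to 0.0015, adjusted p = 0.244), while its other probe set gave 0.12, so the direction for this gene depends on the probe set. Col1a2 had signals of 13.31, 12.84, 12.88, 13.24 and 12.74 in knockout pools, against 13.29, 13.06, 12.93, 13.28 and 12.94 in control pools. Its log2 change was -0.099 (95% interval -0.38 to 0.19, adjusted p = 0.680).

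The windows before the starts of Col3a1 and Col1a2 are shown as those of fibre collagens whose transcripts did not pass. The Col3a1 window is chr1:45311288-45311537 and the Col1a2 window chr6:4505368-4505617, both on the plus strand of RefSeq GRCm38.p6, with the same motifs in capitals.
Col3a1: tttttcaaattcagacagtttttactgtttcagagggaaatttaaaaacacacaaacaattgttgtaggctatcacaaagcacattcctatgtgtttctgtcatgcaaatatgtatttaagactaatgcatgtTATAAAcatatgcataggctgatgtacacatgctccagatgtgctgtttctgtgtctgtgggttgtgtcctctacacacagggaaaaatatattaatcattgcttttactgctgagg
Col1a2: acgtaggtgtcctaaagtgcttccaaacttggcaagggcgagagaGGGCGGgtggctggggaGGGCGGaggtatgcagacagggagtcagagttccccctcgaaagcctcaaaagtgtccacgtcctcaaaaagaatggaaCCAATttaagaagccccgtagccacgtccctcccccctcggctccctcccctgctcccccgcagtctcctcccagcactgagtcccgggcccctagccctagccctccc
The Col3a1 window held a TATA box 117 bases before the start. The Col1a2 window held GC boxes 205 and 188 bases and a CCAAT box 109 bases before the start. RefSeq windows were found for 33 of the 42 collagen genes, 36 windows in all. A GC box was present in 58.3% of these and in 32.7% of all 32851 windows of the table, a CCAAT box in 36.1% and 33.8%, and a TATA box in 13.9% and 12.4%. These matches describe the letters of the windows only.

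Col2a1 had the largest decrease in mean signal among the 42 collagen genes, without passing the test. It encodes the chain of collagen II, the fibre of cartilage that is also laid down by mesenchyme of the developing valves. Its signals were 7.36, 7.38, 7.54, 7.26 and 8.15 in knockout pools, against 8.17, 8.16, 8.91, 8.15 and 8.28 in control pools. The groups were barely apart, at 8.14765 in knockout 5 and 8.14844 in control 4, and the other 4 knockout pools lay well below. The log2 change was -0.80 (SE 0.20, 95% interval -1.24 to -0.35, adjusted p = 0.0661 by limma). Without knockout 5 it was -0.95 and passed (adjusted p = 0.0367), and without the arrays numbered 3 it was -0.65 (adjusted p = 0.186). Only 1 probe set measured it. Col11a1, whose chain joins collagen II in cartilage fibres, had a log2 change of 0.058 (95% interval -0.36 to 0.48). The difference between the changes of Col2a1 and Col11a1 was -0.85 (exact permutation p = 0.0159, adjusted 0.0635).

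Collagen V chains start and limit fibre growth. Col5a1 and Col5a2 had log2 changes of -0.10 (adjusted p = 0.575) and -0.089 (adjusted p = 0.392), with 95% intervals of -0.33 to 0.12 and -0.21 to 0.036. The dimmer probe sets of Col5a1 gave -0.26 and -0.29 (adjusted p of 0.139 and 0.279 over all probe sets). Col5a2 lies beside Col3a1 on chromosome 1.

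Collagen VI had 0 of 5 genes past the threshold, 2 with a higher and 3 with a lower mean, and a median log2 change of -0.014. The 2 with a higher mean, Col6a4 and Col6a5, had dim probe sets, averaging 2.66 and 2.65 over the arrays. Col6a1 and Col6a2, neighbours on chromosome 10, encode the shorter chains. Col6a2 had signals of 10.77, 10.57, 10.85, 10.92 and 10.54 in knockout pools, against 10.83, 10.97, 10.74, 10.91 and 10.60 in control pools, a log2 change of -0.079 (SE 0.094, 95% interval -0.29 to 0.13, adjusted p = 0.655). A second probe set of Col6a2 gave -0.39 (adjusted p = 0.0812 over all probe sets). Col6a1 had signals of 10.23, 9.91, 10.18, 10.31 and 9.83 in knockout pools, against 10.09, 10.14, 9.99, 10.31 and 10.003 in control pools, a log2 change of -0.014. Knockouts 2 and 5 were the lowest knockout pools for both chains. Col6a3, the long chain of the same trimer, had signals of 8.81, 8.18, 8.45, 8.89 and 8.08 in knockout pools, against 9.20, 8.90, 9.14, 8.80 and 8.47 in control pools. The groups overlapped, and the log2 change was -0.42 (SE 0.19, 95% interval -0.85 to 0.0064, adjusted p = 0.249). The changes of Col6a3 and Col6a1 differed by -0.41 (exact permutation p = 0.0476, adjusted 0.0762).

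The fibril-associated collagens held the largest increase and had 0 of 9 genes past the threshold, with 2 higher and 7 lower means. Collagen IX decorates the fibres of collagen II, and Col9a1 and Col9a3 encode chains of its trimer. Col9a3 had signals of 6.39, 7.89, 7.61, 6.87 and 7.91 in knockout pools, against 6.62, 6.17, 7.08, 6.05 and 6.46 in control pools. Knockouts 2, 3 and 5 lay above all controls, while knockouts 1 and 4 lay within the control range. The log2 change was 0.86 (SE 0.32, 95% interval 0.14 to 1.58, adjusted p = 0.175), and the gene passed in 0 of 21 alternative analyses. Col9a1 had signals of 10.01, 10.22, 10.44, 9.62 and 10.98 in knockout pools, against 10.13, 9.59, 10.51, 9.54 and 10.03 in control pools. Knockout 5 was the highest pool and knockout 4 the lowest knockout pool, and the log2 change was 0.30 (SE 0.26, 95% interval -0.29 to 0.89, adjusted p = 0.541). Hapln1, a link protein of hyaluronan matrix and one of the cushion markers, had signals of 9.13, 9.80, 9.77, 8.70 and 10.29 in knockout pools, against 9.19, 8.83, 9.55, 9.13 and 9.03 in control pools. It too was highest in knockout 5 and lowest in knockout 4 among the knockouts. The mean log2 level over the 8 cushion and cartilage-like markers was 6.55 to 7.21 in knockout hearts and 6.38 to 6.70 in control hearts. Of the 8, 7 had a higher mean in knockout hearts and 1 a lower mean, where 39.5% of all genes had a lower mean. Dim probe sets measured 4 of the 8, and 0 passed. Snai2, a transcription factor of cushion mesenchyme, had 0.47 (adjusted p = 0.302), and Nfatc1, the lower one, had -0.20 (adjusted p = 0.375). The part of these markers in the collagen IX values was not tested.

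Col14a1, a fibril-associated collagen that bridges fibres, had signals of 8.82, 8.80, 8.999, 9.37 and 7.94 in knockout pools, against 8.91, 9.51, 9.25, 9.21 and 8.75 in control pools. Knockout 5 was the lowest pool, and the log2 change was -0.34 (SE 0.25, adjusted p = 0.458). Col12a1, a related chain with a dim probe set, had a log2 change of -0.57 (95% interval -1.25 to 0.12, adjusted p = 0.324), and Col16a1 had -0.037. The other 4 members, Col9a2, Col19a1, Col20a1 and Col22a1, lay in the dim range.

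The remaining 11 collagen genes had log2 changes between -0.16 and 0.067 with their brightest probe sets. For Col23a1 the brightest gave 0.039, while dimmer ones gave -0.33 (adjusted p = 0.131 over all probe sets) and 0.092. Col8a1, a short-chain collagen of vessel walls and valves, had signals of 6.70, 6.88, 6.74, 6.89 and 6.81 in knockout pools, against 6.87, 6.66, 6.91, 6.92 and 6.52 in control pools, a log2 change of 0.028 (95% interval -0.16 to 0.21). Its partner Col8a2 had -0.028. Col13a1, a transmembrane collagen, had signals of 8.71, 8.72, 8.76, 8.61 and 8.70 in knockout pools, against 8.62, 8.50, 8.61, 8.81 and 8.85 in control pools, a log2 change of 0.021 (95% interval -0.13 to 0.17). Col18a1 is a basement membrane collagen whose end fragment is endostatin. It had signals of 11.43, 11.38, 11.28, 11.30 and 11.69 in knockout pools, against 11.58, 11.42, 11.71, 11.23 and 11.54 in control pools, a log2 change of -0.079 (95% interval -0.31 to 0.15). Col26a1 had signals of 8.49, 8.50, 8.60, 8.93 and 8.82 in knockout pools, against 8.51, 8.55, 8.48, 8.87 and 8.59 in control pools, a log2 change of 0.067 (95% interval -0.17 to 0.30). Of the 3 short-chain, 4 transmembrane, 2 multiplexin (Col15a1 and Col18a1) and 2 unclassed genes (Col7a1 and Col26a1), 0 passed the test.

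**Figure D3:**
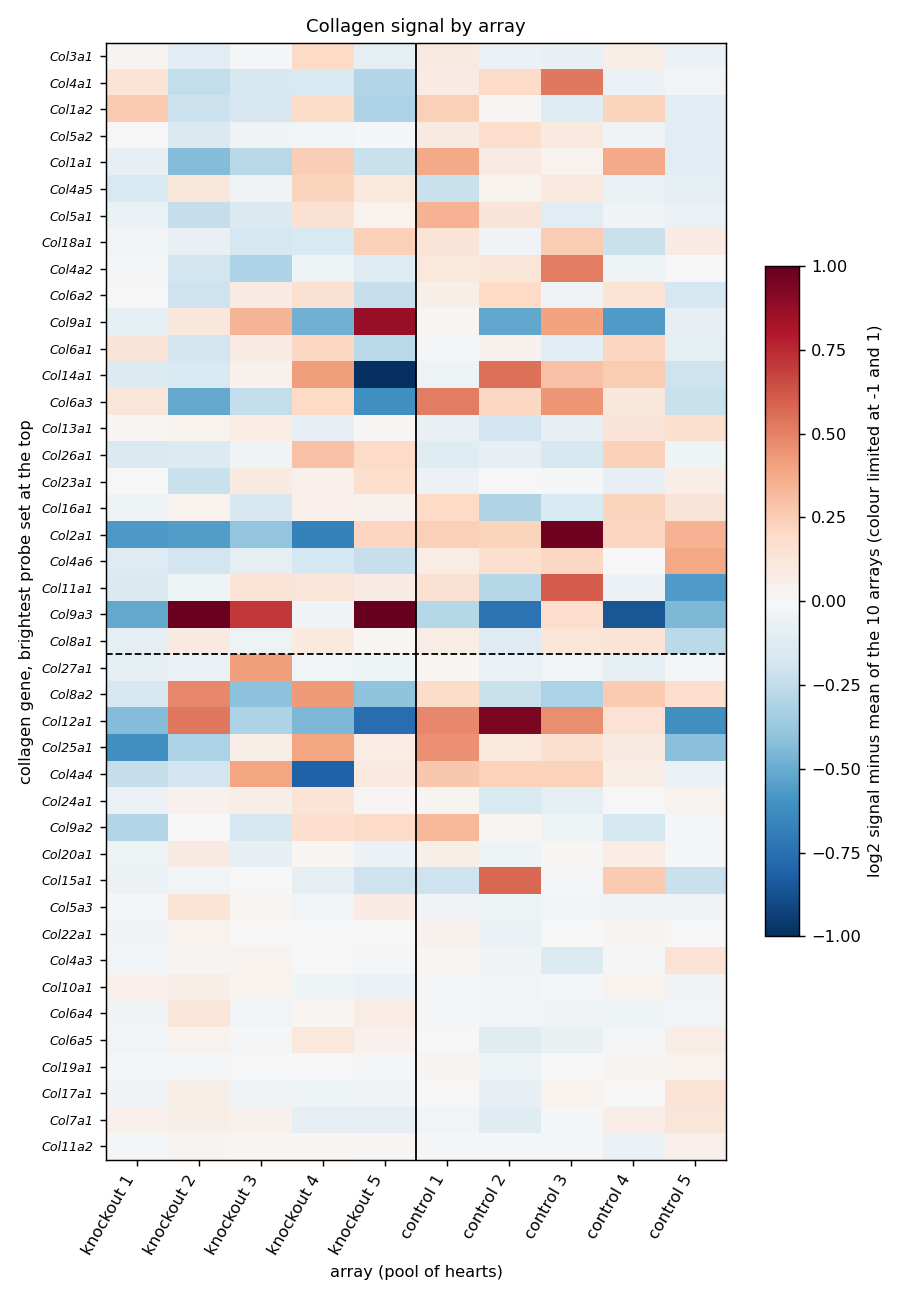
Log2 signal minus the gene's mean over the 10 arrays, for the 42 collagen genes (rows, highest mean signal at the top) in the 5 knockout and 5 control arrays (columns), with colour limited at -1 and 1. The dashed line lies at the median signal of all genes, with 23 genes above it, and Col2a1 and Col9a3 show the widest contrast between the genotypes among those.

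Chains that are built into one molecule moved together across pools in part of the pairs. For 8 pairs fixed by protein composition, deviations from the genotype means were correlated over the 10 arrays. After adjustment over the 8 pairs, r passed for 4: Col6a2 and Col6a1 (r = 0.87, exact permutation p = 0.00549, adjusted 0.0237; rho = 0.82), Col4a1 and Col4a2 (r = 0.86, exact p = 0.00667, adjusted 0.0237; rho = 0.77), Col1a1 and Col1a2 (r = 0.82, exact p = 0.00889, adjusted 0.0237; rho = 0.67) and Col9a3 and Col9a1 (r = 0.79, exact p = 0.0126, adjusted 0.0251; rho = 0.84). The adjusted p of rho was 0.0422 for the pairs of collagens VI, IV and IX and 0.127 for collagen I. Without the 2 arrays farthest from the median of the first chain, r was 0.84 for collagen VI, 0.46 for Col4a1 and Col4a2, 0.75 for collagen I and 0.85 for collagen IX, so the relation of Col4a1 and Col4a2 rests on the 2 arrays left out. The pairs with lower values were Col6a3 and Col6a1 (r = 0.61, exact p = 0.105), Col5a1 and Col5a2 (r = 0.53, exact p = 0.170), Col2a1 and Col11a1 (r = 0.52, exact p = 0.157) and Col4a6 and Col4a5, given above. The chains of a pair share arrays, and so share whatever differed between pools. The changes between genotypes differed within a pair in 0 of 8 pairs after adjustment, with the smallest adjusted p, 0.0635, for Col4a6 with Col4a5 and Col2a1 with Col11a1.

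**Figure D4:**
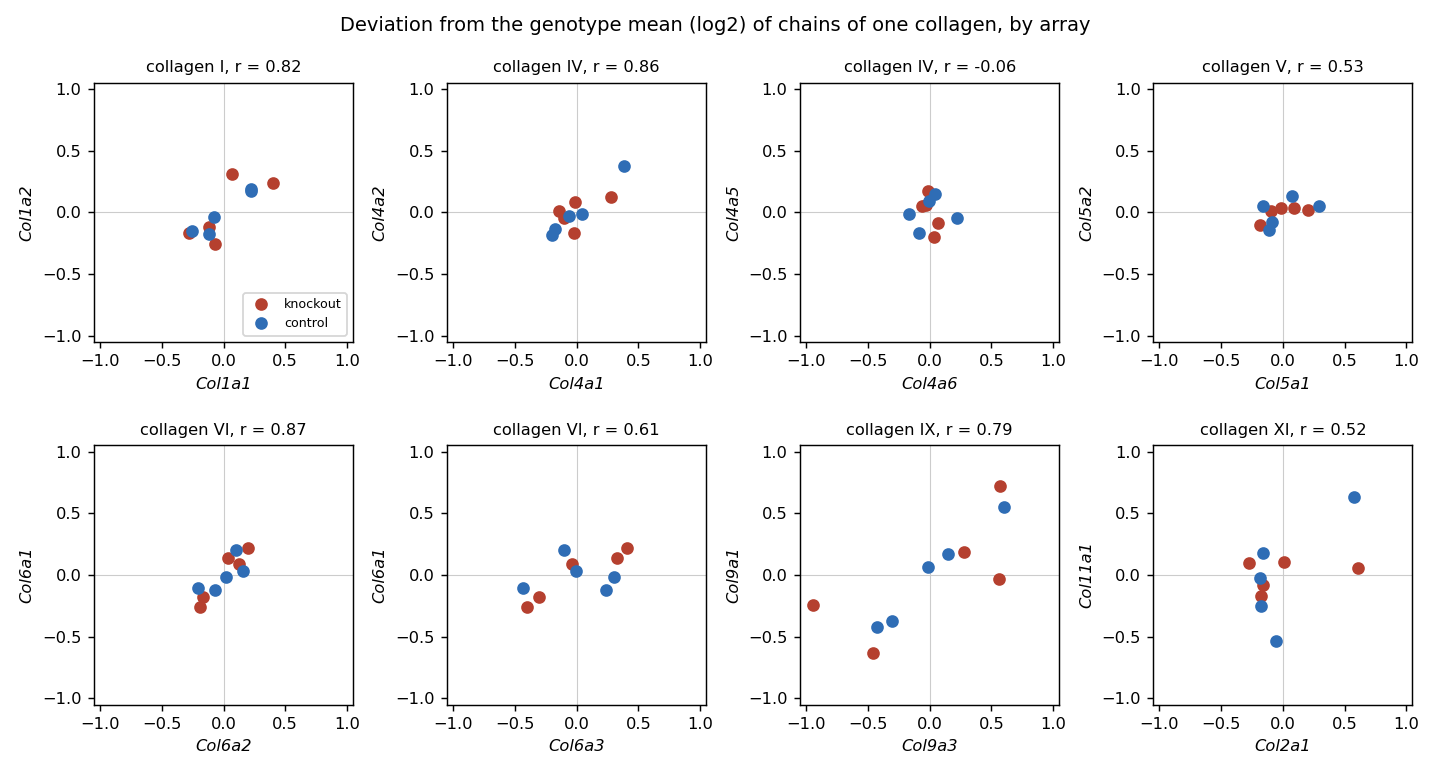
Deviation from the genotype mean on the log2 scale of both chains of 8 pairs, with a point for each of the 5 knockout and 5 control arrays and r in each panel. Points follow a rising line for Col6a2 with Col6a1 (r = 0.87) and no line for Col4a6 with Col4a5 (r = -0.063).

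Genes that make, fold and process collagen were read from 8 lists. Among procollagen processing and cross-linking genes 1 of 10 rose, against 1.63% of all genes, and 0 fell, with 7 higher and 3 lower means. Pcolce, the enhancer of the proteinase that trims the C-terminal propeptide of fibrillar procollagens, had signals of 12.53, 12.75, 12.59, 12.81 and 12.84 in knockout pools, against 11.997, 12.21, 11.97, 12.02 and 12.09 in control pools. Every knockout pool lay above every control pool, the log2 change was 0.65 (SE 0.071, adjusted p = 0.00762 by limma), an increase of 56.4%, and it passed in all 21 alternative analyses, with adjusted p of 0.00170 to 0.0328. Bmp1, the proteinase itself, had a log2 change of -0.36 (adjusted p = 0.0661) with its brightest probe set and 0.60 with its most variable one. Loxl1, a lysyl oxidase, had 0.025.

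Of 15 genes of prolyl and lysyl modification 0 passed, 5 had higher and 10 lower means (39.5% of all genes had a lower mean), and the median log2 change was -0.076. P4ha1 and P4hb, subunits of prolyl 4-hydroxylase, had log2 changes of -0.23 (adjusted p = 0.212) and -0.13 (adjusted p = 0.207). P4ha3, a further subunit with a dim probe set, had 0.68 (adjusted p = 0.250). Crtap, a part of the prolyl 3-hydroxylation complex, had -0.13 (adjusted p = 0.182), while P3h1, a prolyl 3-hydroxylase, had 0.25 (adjusted p = 0.261). Ppib, a prolyl isomerase, had -0.043. Of 11 folding and export genes 0 passed, with 5 higher and 6 lower means. Serpinh1, the collagen chaperone HSP47, averaged 14.22 ± 0.11 in knockout hearts and 14.08 ± 0.03 in control hearts (SD, n = 5 each; log2 change 0.14, adjusted p = 0.188). Sec23a, a coat protein of the export carriers, had a log2 change of 0.14 with all knockout pools above all control pools and an adjusted p of 0.0597. Mia3, another gene of this list, had -0.22 (adjusted p = 0.222).

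Proline, abundant in collagen, is made from glutamate by Aldh18a1 and the reductases after it. Of 5 proline synthesis genes 1 rose and 0 fell, where 1.63% of all genes rose and 0.945% fell. Aldh18a1 had signals of 10.86, 10.86, 10.72, 11.02 and 11.12 in knockout pools, against 10.70, 10.50, 10.43, 10.57 and 10.52 in control pools, without overlap. The log2 change was 0.38 (SE 0.078, adjusted p = 0.0411), an increase of 29.9%. The call was lost without any single control, with adjusted p of 0.0553, 0.0814, 0.0908, 0.0822 and 0.0665 for controls 1 to 5, and without knockout 2, 4 or 5, with 0.0770, 0.0972 and 0.0635. Oat, which makes the same intermediate from ornithine, had a log2 change of 0.055.

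Among the other components of basement membranes 1 of 15 fell and 0 rose, and 12 had lower means (0.945% and 39.5% of all genes), with a median log2 change of -0.13. Lama2, the laminin chain of the basement membrane of muscle, had signals of 6.11, 6.24, 6.15, 6.88 and 6.33 in knockout pools, against 7.25, 7.32, 7.22, 7.34 and 6.72 in control pools. Knockout 4 and control 5 overlapped, and the log2 change was -0.83 (SE 0.17, adjusted p = 0.0365). Its call was lost without control 1, 2, 3 or 4, with adjusted p of 0.0836, 0.0775, 0.0818 and 0.0828, and without knockout 2, 3 or 5, with 0.0837, 0.0809 and 0.0708. Lama4, the laminin chain of vessels, had a log2 change of -0.46 without overlap of the groups (adjusted p = 0.0554), but 0.18 with its most variable probe set. Sparc, a collagen-binding matrix protein, had -0.13.

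Of 13 turnover genes, 8 collagen receptors and 17 proteoglycans and other partners of the fibre, 0 rose and 0 fell in each list, with median log2 changes of -0.013, 0.055 and 0.012. Timp2, an inhibitor of matrix metalloproteinases, had -0.23 (adjusted p = 0.246), Ddr1, a collagen-binding receptor kinase, 0.054, and Postn, a matrix protein that promotes collagen assembly, -0.10. Of the 17 partners 9 had higher and 8 lower means. At an unadjusted p under 0.05 by limma, 4 of them differed, against 20.6% of all genes. Vcan (-0.48), Fn1 (-0.45) and the dim Tnxb (-0.68) were lower, and Matn2 (0.47) was higher.

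**Figure D5:**
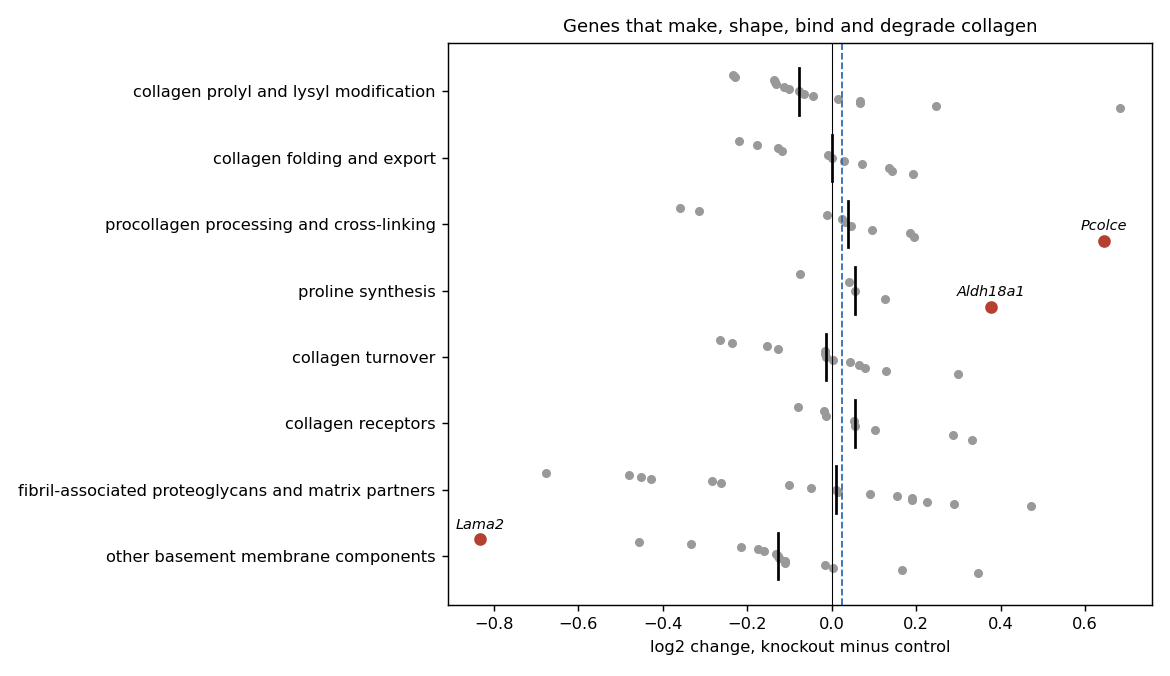
Log2 change, knockout minus control (horizontal axis), of each measured gene in 8 lists of genes that make, shape, bind and degrade collagen (rows), a point per gene, with a black bar at each list's median and a dashed line at the median of all genes. The red, named points have an adjusted p under 0.05: Pcolce and Aldh18a1 rose and Lama2 fell.

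Markers of the cells that make collagen had overlapping levels in both genotypes. The mean log2 level over the 10 fibroblast and mesenchyme markers was 10.54 to 10.65 in knockout hearts and 10.30 to 10.70 in control hearts, with 5 higher and 5 lower means, and Fstl1, Postn and Dcn had log2 changes of -0.036, -0.10 and -0.050. Of these markers Tcf21, a transcription factor of epicardium and its fibroblast descendants, rose (log2 change 0.61, adjusted p = 0.0376). Its call was lost without control 2, 3 or 4 and without knockout 2, 3, 4 or 5 (adjusted p of 0.0511 to 0.0846), and the mean of its probe sets gave 0.27 (adjusted p = 0.0931). Endothelial and endocardial markers had 9.35 to 9.53 in knockout hearts and 9.40 to 9.66 in control hearts, and 0 of 8 passed. Of these markers 4 had higher and 4 lower means. Emcn, Tek and Npr3 had log2 changes of 0.13, 0.023 and -0.19. Among the other lower ones, Kdr had -0.46 (adjusted p = 0.0881), Tie1 -0.31 (adjusted p = 0.223) and Cdh5 -0.29 (adjusted p = 0.129). All 4 lower ones had an unadjusted p under 0.05 by limma, as had 7.48% of all genes in that direction. Epicardial markers had 9.30 to 9.68 in knockout hearts and 9.17 to 9.60 in control hearts, and 0 of 7 passed, with 5 higher and 2 lower means. Upk3b, Tbx18 and Aldh1a2 had log2 changes of 0.069, 0.18 and 0.26, and the lower ones, Upk1b and Msln, had -0.16 and -0.12. Smooth muscle and pericyte markers had 10.25 to 10.47 in knockout hearts and 10.28 to 10.59 in control hearts, and 0 of 8 passed, with 3 higher and 5 lower means. The brightest, Acta2, Tagln and Cnn1, had log2 changes of -0.13, -0.20 and -0.27. The other lower ones, Myocd and Cspg4, had -0.63 (adjusted p = 0.0655) and -0.61 (adjusted p = 0.170). The 3 higher ones, Pdgfrb, Rgs5 and Myh11, had 0.45 (adjusted p = 0.0655, all knockout pools above all control pools), 0.43 and 0.55. At an unadjusted p under 0.05 by limma, 5 of the 8 differed, against 20.6% of all genes. Of 6 macrophage markers (7.29 to 7.65 in knockout hearts and 7.30 to 7.57 in control hearts) and 5 erythroid markers (10.41 to 10.68 in knockout hearts and 10.45 to 11.22 in control hearts) 0 passed. The cardiomyocyte list, whose groups did not overlap, included Nkx2-5, a cardiac transcription factor that fell (log2 change -0.78, adjusted p = 0.0108), Myh7, a myosin heavy chain (-0.47, adjusted p = 0.0250), and Myl2, the ventricular myosin light chain (-0.23, adjusted p = 0.0291). Actc1 and Tnnt2, both brighter than Myl2, had -0.13 (adjusted p = 0.0726) and -0.12 (adjusted p = 0.188). The call of Nkx2-5 held with any single array left out. That of Myh7 was lost without control 1, 2 or 3 or knockout 2, 3 or 4 (adjusted p of 0.0516 to 0.0617), and that of Myl2 without those arrays or knockout 5 (adjusted p of 0.0552 to 0.0680). Whether these cell type markers bear on Col4a6, Lama2 or Pcolce was not tested.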

How the data were processed

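Affymetrix arrays of 10 pools of embryonic hearts were used, 1 array per pool, with genotypes taken from each sample's labels. The authors deposited log2 signals for 45101 probe sets, and RMA and Partek, which summarise and normalise probes, are named per the submitters' processing notes with no version. Values ran from 0.602 to 16.6, and 0 columns of the table were unused. Per the labels' protocols, 5 ug of total RNA was labelled as biotinylated cRNA. Arrays have no read depth, so precision is limited by how many there are. Since the labels call the pools biological replicates but give no batch, p-values measure the spread between these pools.

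Symbols came from the platform annotation: 34945 probe sets had 1 symbol, 932 several, 9160 none, and 64 were controls. Genes took their brightest single-symbol probe set. Levels of different probe sets are not comparable. Changes came from limma 3.58.1 under R 4.3.3, with lmFit and default eBayes on genotype only, two-sided, and adjusted over 18193 genes by the Benjamini-Hochberg method at a threshold of 0.05. The scripts were tested on simulated data. Single values and pairs of chains were compared by exact permutation tests. Promoter windows came from a RefSeq table of GRCm38.p6. Plots used matplotlib 3.10.9 in Python 3.11.15.

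The collagen genes, the gene lists and the tests were chosen with earlier results of these data known. Named with values in every array are collagen genes past the threshold, the brightest of each class, and the 3 largest increases and decreases among genes above the median signal. Of related lists, genes past the threshold and the brightest other are named, and of marker lists the 3 brightest. Other genes with values, such as Col1a1, Col1a2, Col4a2, Col6a1, Bmp1, Lama4, Sec23a, Tcf21, Nkx2-5, Myh7, Pdgfrb, Rgs5 and Myh11, were chosen after their values were seen. So were Kdr, Tie1, Cdh5, Myocd, Cspg4, Upk1b, Msln, Vcan, Fn1, Tnxb and Matn2. The same holds for P4ha1, P4ha3, P4hb, P3h1, Crtap and Mia3. Alternatives were a replicate block, other scalings, filters, probe set rules, eBayes settings, array weights, thresholds, arrays left out and, added after seeing the data, a gene span trend removed.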

Additional observations from a re-analysis of the deposited data

Results flagged for a closer look

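In 7 of 108 groups of 5 arrays examined (84 of them of collagen genes, with 5 of the 7), 1 array stood apart from the other 4 by more than Dixon's 95% limit, which chance alone passes in about 1 of 20 groups. Among knockout arrays, Col27a1 was at 6.75 in knockout 3 (6.25 to 6.31 in the others), Col5a2 at 12.77 in knockout 2 (12.88 to 12.91), Col17a1 at 2.47 in knockout 2 (2.37 to 2.39) and Lama2 at 6.88 in knockout 4 (6.11 to 6.33). Among control arrays, Col2a1 was at 8.91 in control 3 (8.15 to 8.28 in the others), Col26a1 at 8.87 in control 4 (8.48 to 8.59) and Lama2 at 6.72 in control 5 (7.22 to 7.34). The array of Col2a1 is 1 of the arrays numbered 3 that stood farthest from their genotype's mean, and without these arrays its log2 change was -0.65 (adjusted p = 0.186). The causes were not tested.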

How the results depend on the processing

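Over 21 alternatives at the same threshold, 0 values changed sign past the threshold, and 0 collagen genes rose in any, the thresholds 0.01 and 0.1 included. Genes called over the array numbered 469, against 36 with the replicate block, 759 above the median signal, 945 with array weights, 14 at an adjusted p of 0.01, 1160 at 0.1, 30 without the arrays numbered 3, and 105 to 1042 with 1 array left out. The causes were not tested. Collagen genes that fell numbered 1, against 0 with the replicate block, median centring, the mean of probe sets, the most variable probe set, an adjusted p of 0.01, the arrays numbered 3 left out or the gene span trend removed, and 2 (Col4a6 and Col2a1) above the first quartile or the median of signal, with array weights or at 0.1. With 1 array left out it was 0 to 1. The 1 gene was Col2a1 under eBayes with trend and robust and without knockout 5. Col4a6 lost its call in 14 of 21 alternatives (adjusted p 0.0265 to 0.148, log2 change -0.45 to -0.27), and Col2a1 passed in 5 (0.0255 to 0.186, -0.95 to -0.65). Of the marker genes that passed, Tcf21 and Myl2 lost their call in 10 of 21 alternatives each, Myh7 in 8 and Nkx2-5 in 2, all 4 with the replicate block (adjusted p of 0.0706, 0.113, 0.0922 and 0.0571 in that order). The median collagen change, -0.021, moved to -0.079 above the median signal, where only 23 collagen genes are left, and was -0.079 to 0.0031 in all. Hccs kept its sign, at -0.55 with the replicate block (adjusted p = 0.0735), -0.59 without the arrays numbered 3 (0.0714) and -0.60 to -0.48 with 1 array left out, where the adjusted p without control 2, control 3, knockout 2 or knockout 4 was 0.0511, 0.0511, 0.0517 and 0.0563. The labels do not say whether same-numbered pools were matched. Deviations of same-numbered arrays had correlations of -0.068, 0.034, -0.091, 0.077 and 0.0098 for numbers 1 to 5. Knockout 4 correlated best with control 4, and the other knockouts with a control of another number. Whether same-numbered pools shared a litter or batch was not tested. Limits are that RMA compresses low signals to an unknown extent, 19 collagen genes lay below the median signal, and a change in total RNA per heart cannot be seen.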
